A study of Mus musculus with 19 samples.

Results

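The 9 genes described here are induced in microglia that gather around amyloid plaques: Cst7, Itgax, Clec7a, Spp1, Gpnmb, Lpl, Lgals3, Axl and Csf1. They were chosen by name, through the RefSeq transcript that each array probe targets. The Clec7a probes are listed under their transcript alone and were named through the RefSeq gene table. The array held 17 probes for these genes, out of 56605 probes in all. Of the 17, 15 were well above the local background on at least 6 of the 19 arrays and were kept. Each of the 9 genes had at least 1 kept probe, and the 9 stand among 25599 genes tested.

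RNA came from the hippocampus of 8-month-old mice, and each array is 1 labelled sample. Of the 3 groups, 1 held wild-type (WT) littermates given vehicle (n = 6). The other two held APP/PS1 mice, given either vehicle (n = 7) or urolithin A (UA, n = 6). APP/PS1 mice carry mutant human amyloid precursor protein and presenilin 1 transgenes that a prion protein promoter drives mainly in neurons, and they deposit amyloid with age. UA, which gut bacteria make from dietary ellagitannins, was given by gavage at 200 mg per kg per day in DMSO from 6 to 8 months of age. The labels give DMSO as the vehicle, and there was no WT group on UA. The labels do not say that samples are separate animals in so many words, so p-values measure the spread between these samples.

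Microglia are the resident macrophages of the brain. Where amyloid accumulates, microglia next to plaques switch on a common set of genes, known as the disease-associated or plaque-induced set, and this switch depends on the lipid-sensing receptor Trem2 and its signalling adaptor Tyrobp. The set covers lysosomal control (Cst7), adhesion and pattern recognition (Itgax, Clec7a), lipid handling (Lpl, Gpnmb), secreted matrix and sugar-binding proteins (Spp1, Lgals3), and growth factor and dead-cell receptor signalling (Csf1, Axl).

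Levels below are log2 of the processed array signal minus the log2 of that array's 75th percentile, so a difference of 1 is a doubling of signal relative to that percentile. Levels of different genes come from different probes and cannot be ranked against each other. Differences carry the SE of a limma fit over all 19 arrays, and p-values are adjusted by Benjamini-Hochberg over all 25599 genes, with a call at an adjusted p under 0.05. The 75th percentile ran from 663.9 to 1776 intensity units over the arrays. The share of probes well above background was 51.36% to 59.45%. The arrays lay on 3 slides. On the first were all 6 WT arrays with 2 of APP/PS1 vehicle. On the second were the other 5 of APP/PS1 vehicle with 3 of UA, and on the last the remaining 3 of UA. Sex, read from Xist and Y-linked genes, was female on 1 of 6 arrays in WT, on 3 of 7 in APP/PS1 vehicle and on 1 of 6 in UA.

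The first comparison, APP/PS1 vehicle against WT, asks how these genes differed between mice of the amyloid model and wild-type littermates, both on vehicle. Cst7, Itgax, Clec7a and Axl rose, and none of the 9 fell. Cst7, Itgax and Clec7a went from signals near the detection limit in WT to signals well above background on every APP/PS1 array. Axl rose by 1.32-fold. In tissue RNA more microglia and more RNA per microglial cell cannot be told apart. Spp1, Gpnmb, Lpl, Lgals3 and Csf1 did not pass at the probe that stood for each gene. That made 4 of 9 called higher, where 2.86% of all genes tested were called higher and 5.03% were called in either direction. Cst7, Itgax and Clec7a met the filter on dim probes through the APP/PS1 arrays, since only 2, 4 and 4 of 6 WT arrays detected them, so the count of 4 is no support in itself. With no filter the count was 4 too, with 0.818% of genes called, and with a filter on all 19 arrays these 3 genes went untested and 1 gene, Axl, was called, with 7.64% of genes called. The median difference of the 9 genes was 0.40, against 0.0125 over all genes tested.

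**Figure D1:**
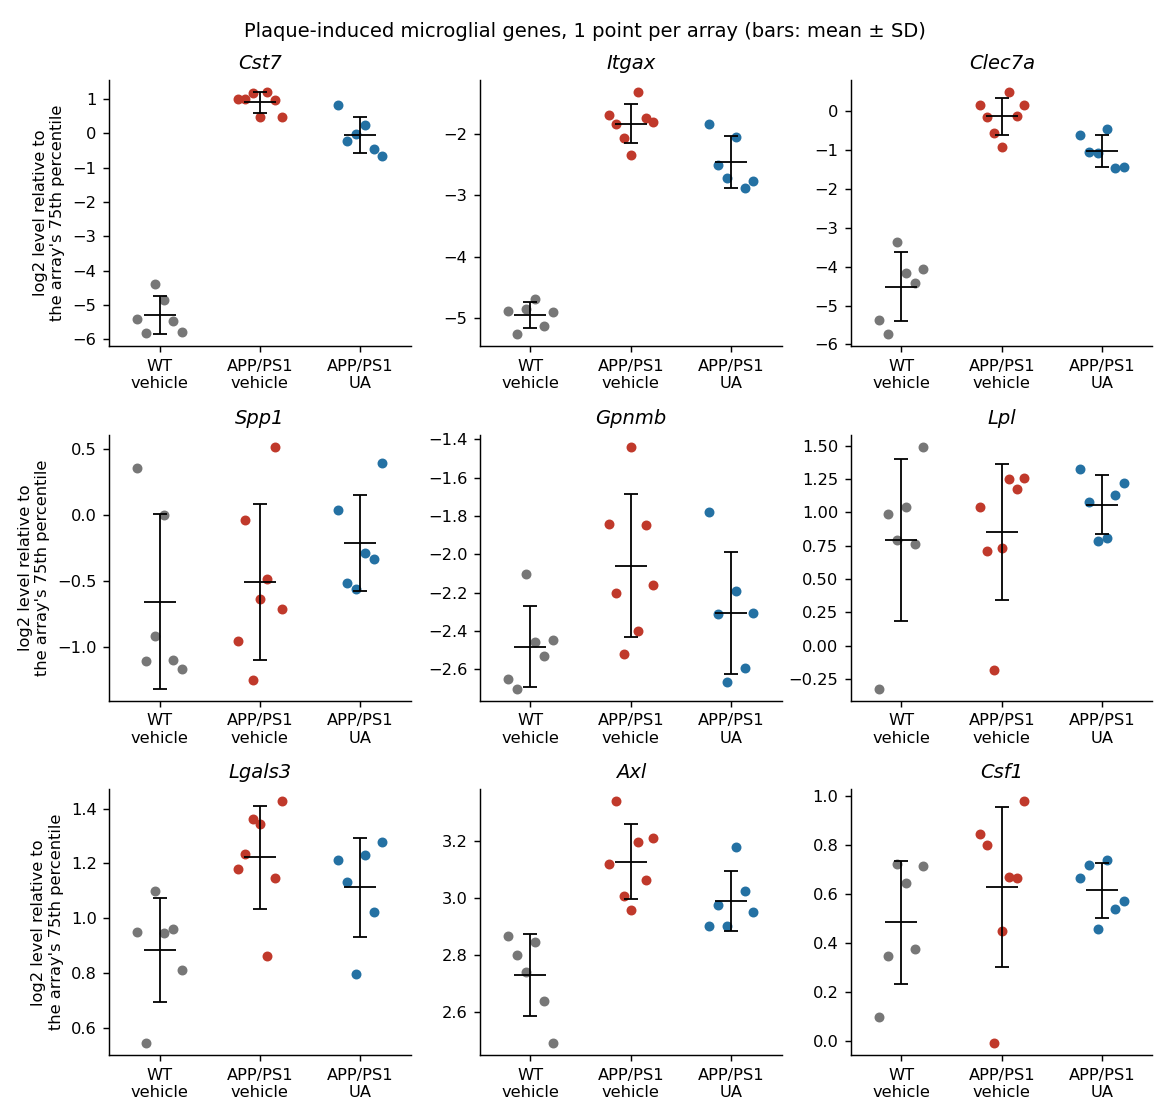
Level of each of the 9 genes on every array (log2 relative to the array's 75th percentile), with 1 point per array and bars for the mean ± SD of the 6 WT vehicle, 7 APP/PS1 vehicle and 6 APP/PS1 UA arrays. In the Cst7, Itgax, Clec7a and Axl panels every APP/PS1 array lies above every WT array, and in the other 5 panels the groups overlap.

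Cst7 encodes cystatin F, a secreted and endocytosed inhibitor of lysosomal cysteine proteases. Its level ran from -5.83 to -4.39 in WT (median -5.43) and from 0.47 to 1.20 in APP/PS1 vehicle (median 1.01). The groups lay far apart, and detection above background was met on 2 of 6 WT and 7 of 7 APP/PS1 vehicle arrays. The difference was 6.19 (SE 0.25, limma adjusted p = 3.86e-11), which is 73.0-fold on the signals as measured. With 4 of 6 WT arrays at background this is not a closely measured ratio, and it ran from 3.83 to 6.30 on the log2 scale over other processing.

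Itgax encodes CD11c, an integrin alpha subunit that marks dendritic cells in the periphery and plaque-associated microglia in the brain. Its level ran from -5.26 to -4.69 in WT (median -4.90) and from -2.35 to -1.32 in APP/PS1 vehicle (median -1.81). All 7 APP/PS1 vehicle arrays again lay above all WT arrays, of which 4 of 6 were well above background. The rise was 8.71-fold (log2 difference 3.12, SE 0.18, limma adjusted p = 7.6e-09). A second Itgax probe was well above background on 0 of 19 arrays and gives no value.

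Clec7a encodes Dectin-1, a lectin receptor for fungal beta-glucan that signals through the kinase Syk. Its level ran from -5.73 to -3.35 in WT (median -4.29) and from -0.91 to 0.50 in APP/PS1 vehicle (median -0.13). WT was the most scattered group for this gene, with an SD of 0.89 against 0.47 in APP/PS1 vehicle, and 4 of 6 WT arrays detected it above background. The rise was 20.9-fold (log2 difference 4.39, SE 0.32, limma adjusted p = 2.68e-07). A dim further Clec7a probe cleared background on 3 of 7 APP/PS1 vehicle arrays and on 0 of 6 in each other group. Its levels ran from -7.61 to -4.76 in WT and from -6.12 to -4.39 in APP/PS1 vehicle. These ranges overlap and most arrays are at background, so no fold is given.

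The WT signals of these 3 genes sit close to background, so the size of their rise depends on how dim signals are processed. With normexp correction of the median spot signals, which adds an offset of 50 to every signal, the log2 differences were 3.83 for Cst7, 1.49 for Itgax and 2.70 for Clec7a, and all 3 stayed called. With levels raised to the lowest level well above background on each array, the Cst7 difference was 5.92. Requiring a signal well above background on all 19 arrays removed the 3 genes from testing.

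Axl encodes a receptor tyrosine kinase that binds dying cells through its bridging ligand Gas6. Its level ran from 2.49 to 2.86 in WT (median 2.77) and from 2.96 to 3.34 in APP/PS1 vehicle (median 3.12). The groups did not overlap. The difference was 0.40 (SE 0.08, limma adjusted p = 0.00781). The call was lost with slide as a block (0.50, adjusted p = 0.0734), within the first slide (0.50, 0.135), on male arrays alone (0.33, 0.111) and with the mean of all Axl probes (0.36, 0.0962). Over all genes tested, 1.49% had every APP/PS1 vehicle array above every WT array, against 4 of these 9, among them the 3 near background in WT.

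Of the genes that did not pass, Gpnmb and Lgals3 came nearest. Gpnmb encodes a transmembrane glycoprotein of lipid-laden phagocytes. Its level ran from -2.70 to -2.11 in WT (median -2.50) and from -2.52 to -1.44 in APP/PS1 vehicle (median -2.16). The ranges overlapped, and the difference was 0.42 (SE 0.17, limma adjusted p = 0.139), with 6 of 7 APP/PS1 vehicle arrays above the WT mean. Lgals3 encodes galectin-3, a sugar-binding protein that microglia secrete and that binds Trem2. It ran from 0.54 to 1.10 in WT (median 0.95) and from 0.86 to 1.43 in APP/PS1 vehicle (median 1.23). Here 6 of 7 arrays lay above the WT mean, and the difference was 0.34 (SE 0.10, adjusted p = 0.0673). Lgals3 passed without APP/PS1 vehicle replicate 5 (0.40, adjusted p = 0.0225), without WT replicate 3 (0.38, 0.0397), with array weights (0.34, 0.0309), with slide as a random block (0.33, 0.0408) and with normexp correction (0.30, 0.0468). Gpnmb passed with array weights (0.54, adjusted p = 0.0295).

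Spp1, Lpl and Csf1 moved least at their brightest probes. Spp1 encodes osteopontin, a secreted ligand of integrins and Cd44. It ran from -1.17 to 0.35 in WT (median -1.01) and from -1.25 to 0.52 in APP/PS1 vehicle (median -0.64), so the ranges nearly coincided. Its difference was 0.15 (SE 0.29, limma adjusted p = 0.781), and the 95% interval, -0.47 to 0.76, still allows a 1.69-fold rise. Lpl encodes lipoprotein lipase, which releases fatty acids from lipoprotein particles. It ran from -0.32 to 1.49 in WT (median 0.89) and from -0.18 to 1.26 in APP/PS1 vehicle (median 1.04). Its difference was 0.063 (SE 0.25, adjusted p = 0.898), with a 95% interval of -0.46 to 0.59. Csf1 encodes the growth factor on which microglia depend through the receptor Csf1r. It ran from 0.10 to 0.72 in WT (median 0.51) and from -0.0079 to 0.98 in APP/PS1 vehicle (median 0.67), with a difference of 0.14 (SE 0.14, adjusted p = 0.539).

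The probes of Csf1 disagreed. The brightest probe targets 1 RefSeq transcript of Csf1 and the 2 dimmer probes another. In a table of all kept probes, the second-brightest Csf1 probe was at -3.47 ± 0.35 (SD, n = 6) in WT and -2.71 ± 0.27 (n = 7) in APP/PS1 vehicle, a difference of 0.76 (SE 0.15, limma adjusted p = 0.00892). The dimmest was at -3.46 ± 0.37 and -2.93 ± 0.25, a difference of 0.54 (SE 0.15, adjusted p = 0.0478). Both passed, and with the mean of all probes Csf1 was called too (0.48, adjusted p = 0.0368). Probes of the other genes agreed in direction. The second Axl probe differed by 0.31 (adjusted p = 0.323), the second Lgals3 probe by 0.33 (0.179), and the 2 further Lpl probes by 0.15 (0.584) and 0.18 (0.601).

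**Figure D2:**
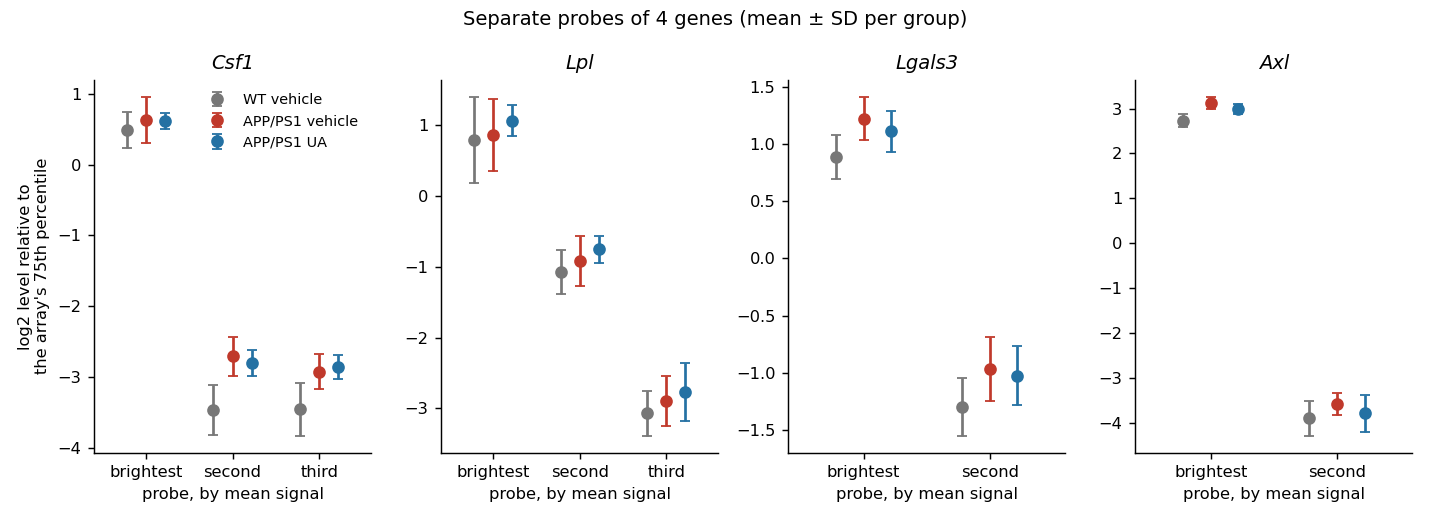
Mean ± SD of each kept probe of Csf1, Lpl, Lgals3 and Axl in the 3 groups (n = 6, 7 and 6; log2 relative to the array's 75th percentile), with probes ordered by mean signal. Both dimmer Csf1 probes show a WT mean below both APP/PS1 means. Single WT arrays still overlap both APP/PS1 groups at the dimmest probe and the UA group at the second-brightest. The brightest Csf1 probe shows 3 overlapping groups.

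Slide and sex touched this comparison, since all WT arrays lay on the first slide. The 2 APP/PS1 vehicle arrays on that slide had Cst7 levels of 1.01 on both, Itgax levels of -1.84 and -1.70, and Clec7a levels of -0.13 and 0.15. Within the first slide the differences from WT were 6.30 for Cst7 (limma adjusted p = 0.00162), 3.19 for Itgax (0.000748) and 4.53 for Clec7a (0.0511), so the sizes held and the Clec7a call was lost with 2 arrays against 6. With slide as a block, these 3 stayed called while 0.305% of all genes were. On male arrays alone the differences were 6.10, 2.97 and 4.25, all called. With sex as a covariate 4 of the 9 genes were called, with 7.69% of all genes.

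The promoters of the 3 strongly raised genes were set beside that of Gpnmb. Gpnmb was not called and was picked because it holds the letters of the same motif as Cst7 and Itgax near a transcription start. Clec7a does not hold them. A count over these 4 stretches is therefore set by the choice and says nothing about the rise. The stretches run from 180 bases before to 20 bases after a RefSeq start site (GRCm38.p6), 5′ to 3′ on the gene's strand. They are chr2:150570235-150570434 on the plus strand, chr7:128129370-128129569 on the plus strand, chr6:49036338-49036537 on the plus strand and chr6:129472760-129472959 on the minus strand. Capitals mark matches to TGANTCA, the letters bound by AP-1, a transcription factor family of activated macrophages.

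Cst7: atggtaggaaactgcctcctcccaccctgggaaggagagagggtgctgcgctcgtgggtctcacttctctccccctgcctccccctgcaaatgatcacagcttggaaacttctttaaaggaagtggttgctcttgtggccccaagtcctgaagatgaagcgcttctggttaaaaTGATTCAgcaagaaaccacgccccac
Itgax: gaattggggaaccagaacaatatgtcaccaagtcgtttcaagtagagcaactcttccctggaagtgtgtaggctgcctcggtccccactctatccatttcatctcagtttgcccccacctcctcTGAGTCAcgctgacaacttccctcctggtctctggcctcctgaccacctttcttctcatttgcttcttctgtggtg
Gpnmb: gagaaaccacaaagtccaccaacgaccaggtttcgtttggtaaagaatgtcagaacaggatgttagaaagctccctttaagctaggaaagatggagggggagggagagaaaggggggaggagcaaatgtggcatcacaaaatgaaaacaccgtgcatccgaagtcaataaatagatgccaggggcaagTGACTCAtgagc
Clec7a: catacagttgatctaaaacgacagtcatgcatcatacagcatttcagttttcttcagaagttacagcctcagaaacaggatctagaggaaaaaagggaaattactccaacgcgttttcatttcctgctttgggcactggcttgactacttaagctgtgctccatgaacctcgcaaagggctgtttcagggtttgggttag

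With -1 as the base before the start and 1 as the first transcribed base, the match lay at -6 to 1 in Cst7, at -56 to -50 in Itgax and at 9 to 15 in Gpnmb. Of the 9 genes, 8 were in the promoter table, and Lpl was not. Over windows of 300 bases, searched on both strands, TGANTCA occurred in 3 of 8 genes and in 7.81% of 32851 promoters. Here and below, a gene counted if any of its windows matched, while the percentages are over single windows, so the units differ. GAGGAAG, a form of the site of the microglial lineage factor PU.1, occurred in 2 of 8, Axl and Spp1, and in 13.6% of promoters. The Runx letters TGTGGT occurred in 4 of 8 and 16.8%, and the E-box letters CANGTG in 4 of 8 and 44.9%, 1 of these, in Gpnmb, overlapping the TGANTCA match. An interferon regulatory factor motif occurred in 1 of 8 and 3.44%, an NF-kB motif in 1 of 8 and 1.63%, and TATAAA in 2 of 8 and 13.6%. A match is a run of letters and not a measured binding site.

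The second comparison, UA against APP/PS1 vehicle, asks whether treated mice of the amyloid model differed from untreated ones. None of the 9 genes passed, and none of the 25599 genes tested did (0% called by limma), while 3962 genes had an unadjusted p under 0.05. Of the 9 genes, 7 had a difference below 0 and 2 above, with a median of -0.14 against -0.00594 over all genes. The largest differences were those of Cst7, Clec7a and Itgax, the only 3 of the 9 with an unadjusted p under 0.05. For each of these 3, all 6 UA arrays lay below the APP/PS1 vehicle mean, yet the ranges overlapped.

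**Figure D3:**
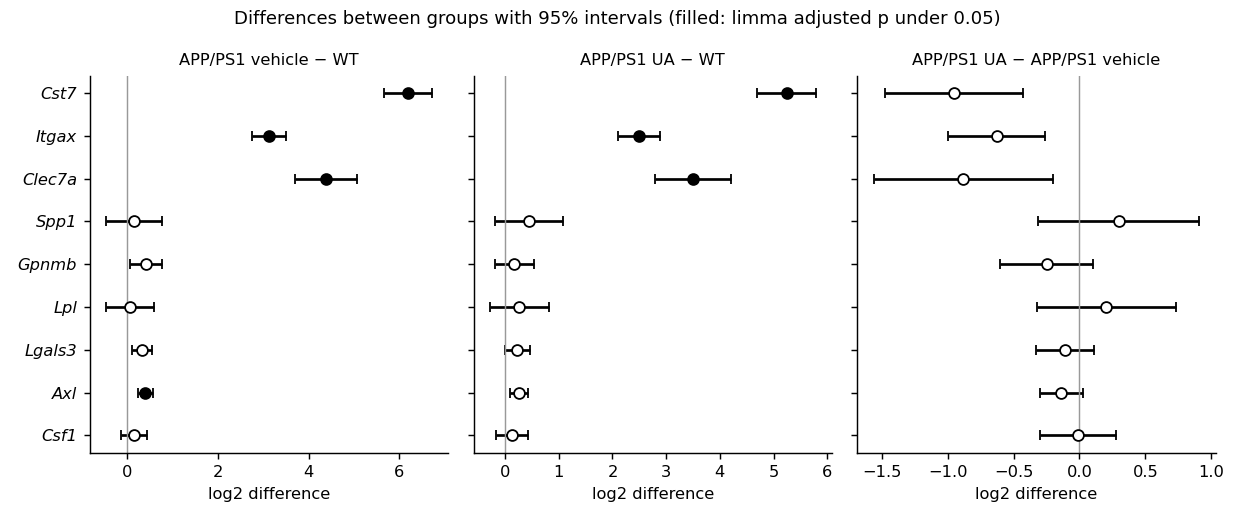
Differences between groups for the 9 genes in log2 units with 95% intervals of the limma fit, 1 panel per comparison, each with its own scale. Filled points passed at an adjusted p under 0.05: 4 of 9 in APP/PS1 vehicle against WT, 3 of 9 in UA against WT and 0 of 9 in UA against APP/PS1 vehicle, where the Cst7, Itgax and Clec7a intervals lie below 0.

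Cst7 was at 1.01, 1.01, 1.16, 0.49, 1.20, 0.97 and 0.47 on APP/PS1 vehicle replicates 1 to 7, and at 0.84, -0.23, -0.030, 0.24, -0.45 and -0.65 on UA replicates 1 to 6. UA replicate 1, the 1 female UA array, lay among the vehicle arrays, and the other 5 UA arrays lay below all of them. The difference was -0.95 (SE 0.25, limma adjusted p = 0.127), a signal 1.93-fold lower in UA, with a 95% interval of -1.47 to -0.43.

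Itgax was at -1.70, -1.84, -2.07, -2.35, -1.32, -1.73 and -1.81 on the 7 vehicle arrays and at -1.83, -2.51, -2.72, -2.05, -2.89 and -2.76 on the 6 UA arrays. UA replicates 1 and 4 lay within the vehicle range, and the other 4 below it. The difference was -0.63 (SE 0.18, limma adjusted p = 0.142; 95% interval -0.999 to -0.26).

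Clec7a was at 0.15, -0.13, -0.55, -0.91, 0.50, -0.13 and 0.16 on the vehicle arrays and at -0.62, -1.06, -1.06, -0.45, -1.45 and -1.43 on the UA arrays. Here too UA replicates 1 and 4 lay within the vehicle range. The difference was -0.88 (SE 0.32, limma adjusted p = 0.22; 95% interval -1.56 to -0.20). The dim second Clec7a probe, which no UA array detected, ran from -6.86 to -5.41 in UA and overlapped with APP/PS1 vehicle, so it gives no fold.

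The calls of the 9 genes in this comparison differed in 1 of the other settings tried. With normexp correction Cst7 (-0.85, limma adjusted p = 0.0247), Itgax (-0.50, 0.0247) and Clec7a (-0.78, 0.0301) passed, among 1953 genes called in all (7.63%). That processing starts from the median spot signal without the scanner's dye normalization and adds an offset, and which of these changes moved the calls was not tested. The differences themselves were no larger than before. Within the second slide, with 5 vehicle and 3 UA arrays, the differences were -0.67 for Cst7, -0.50 for Itgax and -0.72 for Clec7a, each with an adjusted p of 0.90. On male arrays alone they were -1.14, -0.60 and -0.73, with adjusted p of 0.29, 0.345 and 0.493. The 3 female APP/PS1 vehicle arrays had Clec7a levels of -0.13 to 0.50, against -0.91 to 0.15 on the 4 male ones. Their Cst7 levels, 0.47 to 1.20, spanned those of the male arrays, 0.49 to 1.16. The part of sex in the result beyond these values was not tested.

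The other 6 genes showed smaller differences, and none had a 95% interval that excluded 0. Gpnmb ran from -2.67 to -1.78 in UA (median -2.31), a difference of -0.25 (SE 0.17, limma adjusted p = 0.481). Axl ran from 2.90 to 3.18 (median 2.96), with a difference of -0.14 (SE 0.08, adjusted p = 0.392) and 5 of 6 UA arrays below the vehicle mean. Lgals3 ran from 0.80 to 1.28 (median 1.17), a difference of -0.11 (SE 0.10, adjusted p = 0.624). All 3 of these ranges overlapped with vehicle. Csf1 ran from 0.46 to 0.74 (median 0.62), a difference of -0.013 (SE 0.14, adjusted p = 0.974). Lpl and Spp1 lay on the other side, at 0.79 to 1.33 (median 1.10) and -0.56 to 0.39 (median -0.31). Their differences were 0.20 (SE 0.25, adjusted p = 0.715) and 0.30 (SE 0.29, adjusted p = 0.633).

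The last comparison, UA against WT, asks how far treated mice of the amyloid model remained from wild-type littermates. Cst7, Itgax and Clec7a were higher in UA than in WT, 3 of 9 genes, where 0.0898% of all genes tested were called and all 23 of those were higher. Here too the 3 met the filter through the APP/PS1 arrays. With no filter 3 were called with 0.0351% of genes, and with the filter on all 19 arrays they went untested and 0 of the other genes were called, with 0.208% of genes. Cst7 differed by 5.24 (SE 0.26, limma adjusted p = 1.4e-09), a 37.8-fold higher signal in UA, Itgax by 2.49 (SE 0.18, 4.38e-07; 5.63-fold) and Clec7a by 3.51 (SE 0.34, 2.66e-05; 11.4-fold). The probes of all 3 were well above background on 6 of 6 UA arrays. This comparison shares its UA arrays and its WT arrays with the other 2, so the 3 sets of differences are not independent.

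Axl was above WT on every UA array, from 2.90 against a WT maximum of 2.86, but its difference of 0.26 (SE 0.08, limma adjusted p = 0.355) did not pass. With Axl, 4 of 9 genes had UA and WT arrays that did not overlap, against 0.598% of all genes that lay higher in this way. Among the 4 are the 3 genes near background in WT, which met the filter through the APP/PS1 arrays. The remaining differences were 0.45 for Spp1, 0.27 for Lpl, 0.23 for Lgals3, 0.17 for Gpnmb and 0.13 for Csf1, with adjusted p from 0.577 to 0.821. No slide held both groups. With slide as a block, Clec7a lost its call (3.80, adjusted p = 0.143). With normexp correction the differences were 2.97 for Cst7, 0.99 for Itgax and 1.92 for Clec7a, all called.

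The 9 genes were then set beside 40 other genes of the plaque-induced set, of which 39 were tested. Between APP/PS1 vehicle and WT 19 rose and 1, Syngr1, fell, with a median difference of 0.34. Over all genes tested, 2.86% were called higher and 2.18% lower. The 6 of smallest p were Ccl6 (2.39, limma adjusted p = 2.68e-07), Cd52 (2.02, 4.68e-07), Trem2 (1.65, 5.27e-07), Tyrobp (1.56, 1.22e-06), Lilrb4a (1.06, 7.13e-06) and Ccl4 (2.82, 2.44e-05). Ccl4 and Ccl6 encode chemokines, and Cd52 a small surface glycoprotein. In WT, 3 of 6 arrays detected Ccl4. Between UA and APP/PS1 vehicle 0 of 39 passed, with 24 differences below 0 and a median of -0.19. Between UA and WT 6 rose, where 0.0898% of all genes tested were called. They were the same 6 genes that are named above, with differences of 1.88 for Ccl6, 1.29 for Cd52, 1.07 for Trem2, 0.99 for Tyrobp, 0.82 for Lilrb4a and 2.20 for Ccl4.

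**Figure D4:**
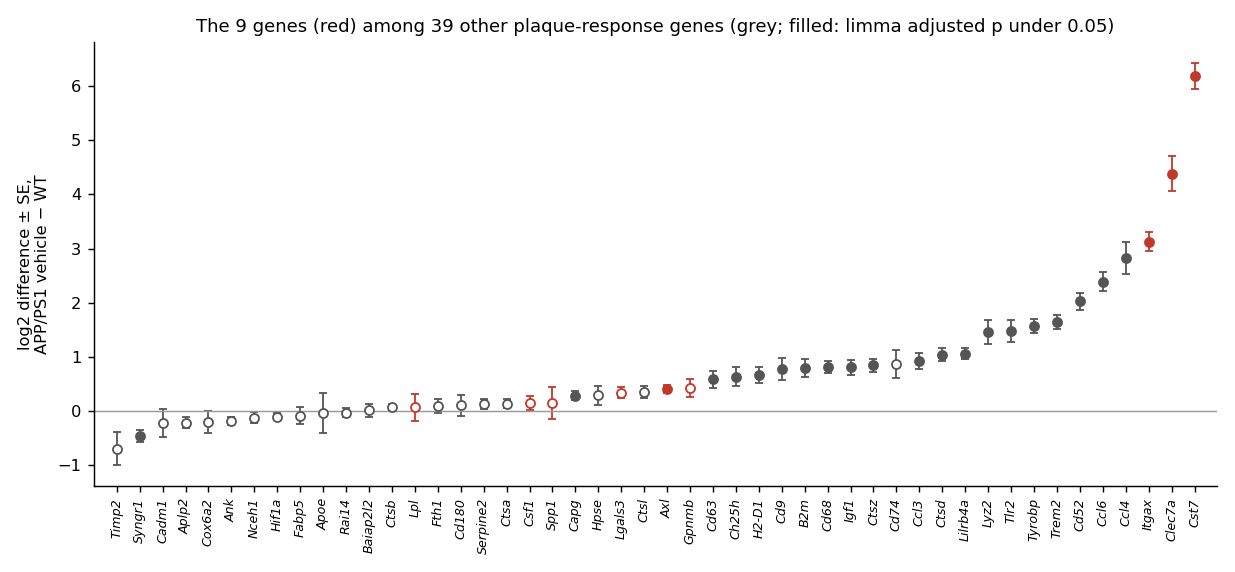
Log2 difference ± SE between APP/PS1 vehicle (n = 7) and WT (n = 6) for the 9 genes (red) and 39 other genes of the plaque-induced set (grey), ordered by size. Filled points passed at a limma adjusted p under 0.05. Cst7, Clec7a and Itgax, whose WT signals lie near background, stand at the right-hand end on the signals as measured, while Lpl, Csf1, Spp1, Lgals3 and Gpnmb lie in the middle with open points.

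Of 27 genes that encode ligands, receptors, subunits or substrates tied to the 9, 26 were tested. Between WT and APP/PS1 vehicle 7 of them rose, where 2.86% of all genes tested did, and 0 fell. For Itgax, the beta subunit Itgb2 with which CD11c pairs rose by 0.60 (limma adjusted p = 0.00175), and its sister alpha subunit Itgam did not pass (0.019, 0.945). For Csf1, the receptor Csf1r rose by 0.57 (0.00198), and the second Csf1r ligand Il34 did not pass (-0.17, 0.428). Csf2rb, the shared beta chain of related cytokine receptors, rose by 0.51 (0.00486), and the alpha chain Csf2ra did not pass (0.085, 0.689).

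For Axl, neither the bridging ligands Gas6 (0.13, limma adjusted p = 0.789) and Pros1 (0.40, 0.278) nor the sister receptors Mertk (0.088, 0.609) and Tyro3 (-0.23, 0.165) passed. For Lgals3, its binding protein Lgals3bp rose by 1.20 (0.0228), with Trem2 and Tyrobp as given above. For Spp1, the integrin subunit Itgb5 rose by 0.50 (0.00296), while Itgav (0.068, 0.878), Itgb1 (0.15, 0.302) and Cd44 (-0.13, 0.857) did not pass. For Cst7, the target protease Ctsc (0.71, 0.115), Ctsl (0.34, 0.0822) and Lgmn (0.17, 0.165) did not pass. For Clec7a, Syk did not pass (0.27, 0.155). For Lpl, Gpihbp1, Lmf1, Apoc2, Angptl4 and Vldlr did not pass. None of the 26 passed between UA and APP/PS1 vehicle. Between UA and WT 2 did, Trem2 and Tyrobp, where 0.0898% of all genes tested were called.

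Genes that mark microglia in general moved with the plaque-induced genes. Of 9 such genes tested, 8 rose between WT and APP/PS1 vehicle, where 2.86% of all genes did, and the median difference of the 9 was 0.87. Their mean level ran from 0.49 to 0.83 on WT arrays, from 1.41 to 1.71 on APP/PS1 vehicle arrays and from 0.93 to 1.42 on UA arrays. Of 12 genes typical of resting microglia, 6 rose and 0 fell, among them Cx3cr1 (0.49). P2ry12 (0.57) and Tmem119 (0.26) did not pass.

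The level of each gene was therefore also taken relative to the mean of the 9 general microglial genes on the same array. This ratio depends on the list. Between WT and APP/PS1 vehicle C1qc and Ly86 of that list rose by 0.94 and 1.19, and Itgam did not pass (0.019). The 12 genes of resting microglia had a median difference of 0.49, and a ratio to them was not taken. On the ratio to the 9, Cst7 ran from -6.50 to -5.19 in WT, from -1.24 to -0.28 in APP/PS1 vehicle and from -1.60 to -0.59 in UA. Itgax ran from -5.77 to -5.48, from -3.76 to -2.95 and from -3.97 to -3.26 in the same order. Clec7a ran from -6.23 to -4.15, from -2.32 to -1.14 and from -2.39 to -1.84. For these 3 genes every APP/PS1 array stayed above every WT array on this ratio, where 0.0508% of all genes tested did so for vehicle and 0.0508% for UA. The 3 met the filter on dim probes through the APP/PS1 arrays and lie near background in WT, so the contrast with that share is no support in itself. Between WT and APP/PS1 vehicle their means differed by 5.35, 2.28 and 3.55. The UA and APP/PS1 vehicle ranges of all 3 overlapped, with differences in means of -0.61, -0.29 and -0.54.

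The other genes went the other way on this ratio, as did most genes on the array. Lgals3 ran from 0.049 to 0.32 in WT and from -0.77 to -0.067 in APP/PS1 vehicle, with no overlap. Of all genes tested, 52.7% lay lower without overlap in this way. Axl overlapped, at 1.78 to 2.30 in WT and 1.48 to 1.89 in APP/PS1 vehicle. Csf1 overlapped too, at -0.73 to 0.011 and -1.45 to -0.64, as did Gpnmb, Spp1 and Lpl.

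**Figure D5:**
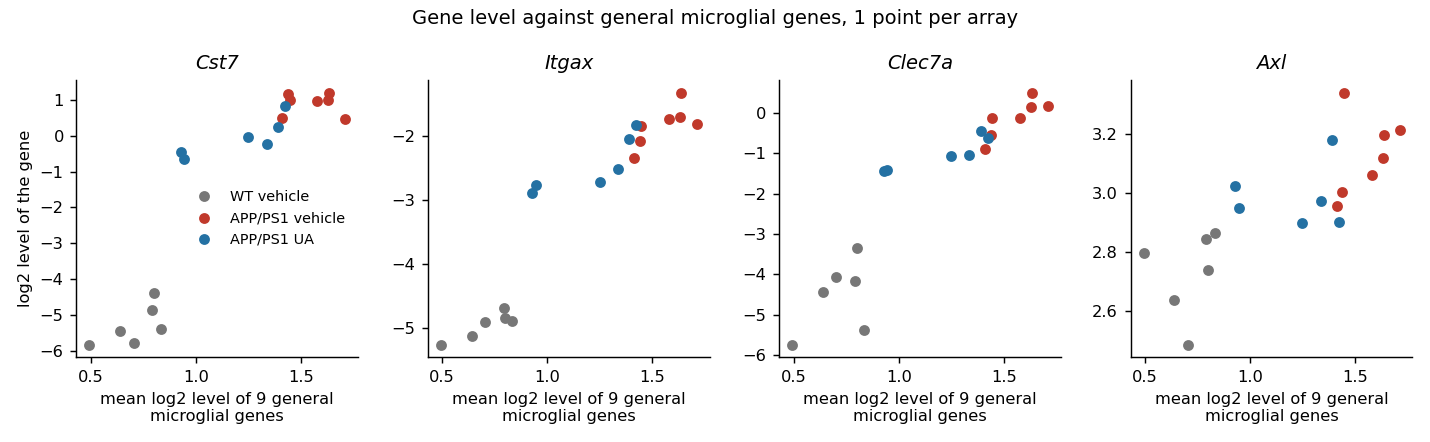
Level of Cst7, Itgax, Clec7a and Axl on each array against the mean level of 9 general microglial genes on that array (both log2 relative to the array's 75th percentile), with 1 point per array and a colour per group. WT arrays sit at 0.49 to 0.83 on the horizontal axis, UA arrays at 0.93 to 1.42 and APP/PS1 vehicle arrays at 1.41 to 1.71. The 2 UA arrays furthest to the left are also low in Itgax and Clec7a among UA arrays.

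Other immune cells can express some of the 9 genes, so their markers were read on the same arrays. Of 8 tested markers of border macrophages, 0 passed in any comparison, and their mean level ran from -3.48 to -2.75 in WT, -3.48 to -2.26 in APP/PS1 vehicle and -2.97 to -2.03 in UA. All 8 lay above WT in APP/PS1 vehicle and in UA, with median differences of 0.25 and 0.54. Of all genes tested, 52.1% and 47.8% lay above WT. Of 6 tested monocyte and neutrophil markers 0 passed, with means of -2.17 to -1.09, -2.22 to -0.64 and -2.62 to -1.34. Of these lists, Ccr2, Ngp, Retnlg and Siglec1 stayed at background on all 19 arrays, while S100a9, Camp, Elane, Chil3, Ly6c2, Mrc1 and Pf4 were detected on all 19. Of 5 tested lymphocyte markers 0 passed, with means of -1.62 to -1.03, -1.48 to -1.02 and -1.54 to -1.04, and Cd79a stayed at background throughout while Cd3e was detected on all 19 arrays. The part of these cells in the results was not tested.

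Of 8 astrocyte markers, 3 rose between WT and APP/PS1 vehicle, where 2.86% of all genes did: Gfap by 1.01 (limma adjusted p = 6.43e-05), Aqp4 by 0.48 (0.00727) and S100b by 0.31 (0.037). Their mean level over the list ran from 2.42 to 2.77 in WT, 2.47 to 3.05 in APP/PS1 vehicle and 2.82 to 2.99 in UA, and 0 of 8 passed in the comparisons with UA. Markers of oligodendrocytes, their precursors, pyramidal neurons and vessels gave 0 calls in any comparison. Choroid plexus markers varied widely, from -2.10 to 2.99 in WT, -4.09 to 3.53 in APP/PS1 vehicle and -2.43 to 3.02 in UA. Their medians were -1.42, 2.24 and 2.29 in the same order. All 10 markers lay above WT in APP/PS1 vehicle and in UA, with median differences of 1.71 and 1.67, and 0 passed. Of all genes tested, 52.1% and 47.8% lay above WT. With the mean of these markers as a covariate the same number of the 9 genes, 4, 0 and 3, was called in the 3 comparisons, with 5.02%, 0.172% and 0.0781% of all genes called. The differences between APP/PS1 vehicle and WT were then 6.25 for Cst7, 3.15 for Itgax, 4.29 for Clec7a and 0.37 for Axl. They were 0.33 for Gpnmb, 0.28 for Lgals3, 0.070 for Spp1, 0.035 for Csf1 and -0.040 for Lpl.

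Within groups, Cst7, Itgax and Clec7a varied together. After the group mean was taken off each level, Pearson's r over the 19 arrays was 0.694 for Cst7 and Itgax, 0.683 for Itgax and Clec7a and 0.635 for Cst7 and Clec7a. Csf1 correlated with Clec7a at 0.671 and with Lpl at 0.773, and Cst7 with Spp1 at 0.113. These values are descriptions over arrays that share slides and differ in depth, with no test.

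The genes most like each of the 3 were ranked by the same measure over all genes with a symbol. For Itgax they included Fcgr2b (r = 0.878), Mpeg1 (0.875), Hvcn1 (0.854) and Trem2 (0.837), and between APP/PS1 vehicle and WT these 4 rose by 1.04, 1.12, 0.66 and 1.65. For Clec7a they were Vav1 (0.791), Ccl4 (0.785), Was (0.77), Bcl2a1c (0.754) and Ly86 (0.742), which rose by 0.64, 2.82, 0.55, 2.12 and 1.19. For Cst7 they were Ctnna2 (0.815), Cd52 (0.775), Olfr279 (0.762), C1qc (0.746) and Bcl2a1d (0.742). Of these, Cd52, C1qc and Bcl2a1d rose by 2.02, 0.94 and 1.88, and Ctnna2 (0.0088, limma adjusted p = 0.945) and Olfr279 (0.031, 0.84) did not pass.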

How the data were processed

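Cy3-labelled hippocampal cRNA of 19 samples was hybridised to Agilent arrays. The authors' scanner output gives spot intensity (Agilent Feature Extraction 12.0.3.1, 2-colour protocol), per the file headers: the processed green signal was background-subtracted and dye-normalized by the authors' software within each array. The flag for a spot well above background comes from the same deposited files. The deposited value table holds a score per array, the log10 of that signal centred and divided by its SD over the array, as recomputed to within 0.005, with medians of -0.28 to -0.17.

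Of 62976 spots, 3671 controls and any non-uniform spots were dropped. Replicate spots of a probe were averaged as log2, and 33450 probes well above background on at least 6 arrays were kept. Accessions were named through RefSeq (GRCm38.p6). The brightest probe stood for a gene. The groups of the labels were tested with limma 3.58.1 (lmFit, eBayes; R 4.3.3, data.table version 1.17.8), 2-sided, after a check on simulated data. Precision is limited by how many arrays there are.

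The 9 genes and all lists were chosen with earlier results of these data known. Named were the 9 genes and their probes, up to 6 passing plaque-induced genes per comparison by p, the partner genes, and the 5 genes most alike to Cst7, Itgax and Clec7a. Some genes that the rule named are left out here. Alternatives covered scaling, background, filter, probe rule, slide, sex, choroid plexus level, replicate number, array weights and each array left out. Normexp (offset 50) used median spot and background signals, since the files hold no mean signal. The slide as a random block and the raised levels were added after seeing the data. Promoter sequences are RefSeq's, GRCm38.p6.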

Additional observations from a re-analysis of the deposited data

Results flagged for a closer look

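Lpl in APP/PS1 vehicle replicate 3 was at -0.18, far below the other 6 arrays of its group, which ran from 0.71 to 1.26. The gap to the nearest array was 0.616 of the group's whole range. Of 27 groups of values tested (9 genes in 3 groups), this was the 1 that stood out. Chance gives about 1 in 20 such groups, so 1 of 27 is near what chance gives. The same array had the lowest 75th percentile, 663.9 intensity units, and the lowest share of probes well above background, 51.36%. Csf1 was lowest on that array too, at -0.0079. WT replicate 1 was lower still for Lpl, at -0.32, and was the lowest WT array for Csf1, at 0.099. Its 75th percentile was 1167 intensity units and its share of probes well above background 55.72%. The part of array quality in these values was not tested.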

How the results depend on the processing

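In APP/PS1 vehicle against WT, 4 of the 9 genes were called, 1 with the filter on all 19 arrays, which leaves Cst7, Itgax and Clec7a untested (7.64% of genes called), and 2 within the first slide (0.0859% of genes called). The other 14 settings gave 3 to 6, with 0.305% (slide as a block) to 14.1% (array weights) of genes called. Leaving out each array gave 4 to 5, with 1.57% to 8.59% of genes called. In UA against APP/PS1 vehicle the 0 calls became 3 with normexp (7.63% of genes called), and leaving out each array gave 0 to 0 (0% of genes called). In UA against WT the 3 calls became 0 with the filter on all 19 arrays, where the 3 genes are again untested (0.208% of genes called). Leaving out each array gave 3 to 3, with 0.0625% to 0.145% of genes called. Genes called in all moved by more: for APP/PS1 vehicle against WT from 1288 to 78 with slide as a block, 228 on male arrays, 338 with the replicate block, 373 with no filter and 3615 with array weights. Leaving out WT replicate 6 gave 403 and leaving out WT replicate 3 gave 2199.

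Directions turned only for genes that were never called in that comparison. Lpl in APP/PS1 vehicle against WT was at -0.10 with sex as a covariate, -0.077 on male arrays, -0.040 with the choroid plexus covariate and -0.0046 with the replicate block, and from -0.16 to 0.24 with 1 array left out. Spp1 was at -0.17 on male arrays and from -0.024 to 0.35 with 1 array left out. Csf1 in UA against APP/PS1 vehicle was at 0.026 with normexp, 0.0033 in the deposited score, 0.064 both with slide as a block and within the second slide, 0.042 with sex as a covariate, 0.083 on male arrays and 0.045 with the replicate block, and from -0.12 to 0.045 with 1 array left out. The cause was not tested. Arrays with the same replicate number deviated together with correlations from -0.545 to 0.39. Arrays of different numbers were not set beside these, so whether the numbers pair the arrays was not tested. The replicate block left the calls at 4, 0 and 3 of the 9 genes, with 1.32%, 0% and 0.0469% of all genes called.

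No value within a slide exists for UA against WT. The WT signals of Cst7, Itgax and Clec7a near background limit how closely the size of their rise is known: over 14 settings on the log2 scale it ran from 3.83 to 6.30, 1.49 to 3.19 and 2.70 to 4.53.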
